A study of Mus musculus with 141 samples.

Results

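The genes described are 46 ribosome biogenesis factors, chosen by name for their known part in making ribosomes, among 46517 genes listed in the deposited table. All 46 were found under the names used here and all passed the filter on low values. By role, 3 belong to the RNA polymerase I machinery, 3 to the box C/D and 4 to the box H/ACA small nucleolar ribonucleoproteins, 6 are nucleolar regulators and chaperones, 17 serve the small subunit and 13 the large subunit. A second list of 134 other genes of the same pathway was read beside them. RNA was sequenced from mouse CD4 T cells sorted as CD4+CD25-CD44lo (naive cells) from lymph nodes and spleen of C57BL/6 animals (their age was not stated), before and during culture on plate-bound antibodies to CD3 and CD28, which replace the signals of an antigen-presenting cell. In courses 4 to 6 the cultures received IL6 and TGFb with IL1b and IL21, with IL1b, or with IL21, and naive cells at 0 h were taken. In courses 1 to 3 they received IL6 and TGFb or no cytokines (Th0), again with naive cells at 0 h. IL6 with TGFb is the pair of signals that starts the differentiation of Th17 cells, and the comparison with Th0 separates their effect from that of stimulation. Cultures were sampled at 9 times between 0.5 and 72 h, and each of the 47 groups had 3 libraries, called biological replicates in the labels. Whether any of them came from the same animals was not stated, so p-values measure the spread between libraries. In the main fit that spread is pooled over all groups of a set of courses, and it can differ from that of the libraries compared.

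Ribosome production starts in the nucleolus, where RNA polymerase I transcribes the precursor of the large ribosomal RNAs. Small nucleolar RNAs guide its chemical modification, 2′-O-methylation by box C/D and pseudouridylation by box H/ACA particles, while a large processome folds and cuts the precursor into the RNAs of the small and large subunits. A T cell that leaves quiescence enlarges its nucleolus and makes many ribosomes before it divides, and MYC is known to drive many of these genes. Levels are given as CPM (reads of a gene per 1000000 counted reads) rescaled between libraries by the trimmed mean of M values (TMM), and values in 3 libraries are listed in the order of the courses. Differences are log2 changes of that CPM plus 0.5 with their standard error (SE), and calls were made in limma at adjusted p values below 0.05. CPM is a share of all RNA counted: fewer cells expressing a gene and less of its RNA per cell cannot be told apart, nor can a change in total RNA per cell be seen.

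The libraries held 16 to 47.1 M counted reads (median 25.4 M). Summed markers of B cells were at 1.01 to 22.4 CPM in all libraries and those of myeloid cells at 2.25 to 49.3 CPM, against 917 to 7546 CPM for markers of naive and CD4 T cells, in which Cd4 and Cd3e were counted in every library. Of the B cell list Pax5 was at 0 in 1 library and Blk in 13, and of the NK and gamma-delta T cell list Ncr1 was at 0 in 96 libraries. Cd79a, Cd79b and Ms4a1 of the former and Klrd1 and Trdc of the latter were counted in every library. The CD8 T cell list summed to 37.2, 32.8 and 40.6 CPM in Th0 cells at 24 h, against 2.29, 1.98 and 2.64 CPM with IL6 and TGFb. Of its 2 genes Cd8a was at most 4.36 CPM in any library and Cd8b1 at most 39.5 CPM, so these Th0 sums were mostly Cd8b1. The erythroid and platelet list summed to 19.7 to 42.3 CPM from 0.5 to 2 h and to 0.0442 to 2.31 CPM from 24 to 72 h. The NK and gamma-delta T cell list summed to 0.691 to 88.7 CPM from 24 to 72 h, with Klrd1 its highest gene (at most 87.7 CPM). The Th0 libraries of course 1 stood apart at late times: their root mean square distance from the mean of their group (these libraries included) over all genes tested was 0.63 on the log2 scale at 72 h and 0.43 at 48 h, against a median of 0.156. At 72 h that Th0 library had 775 CPM of the proliferation gene Mki67, against 2185 and 2278 in courses 2 and 3, and 582 CPM of the cell cycle inhibitor Cdkn1a, against 62.5 and 93.1. Counts of calls that use these groups are also given without these libraries. All groups of courses 1 to 3 share 1 estimate of spread, so these libraries also enter the SE at other times. Counts for comparisons that do not use these groups are not given without them. Counts from this and other alternative fits stand without a share over all genes, and they are not read as particular to the members.

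Some members carried features that their choice by name did not use, given here as counts with no test. Small nucleolar RNA genes on the same strand lay within the bounds of 7 of the 46 (15.2%) in the GENCODE annotation, against 1.57% of the other pathway genes matched and 1.62% of 11907 protein-coding genes tested. These hosts were Nop56 and Nop58, which are themselves scaffold proteins of box C/D particles and held 5 and 4 such genes, then Ncl and Gnl3 (3 each), Wdr43 (3), Tsr1 (2) and Dkc1 (1). Promoter windows of RefSeq (GRCm38.p6, 250 bases before to 50 after the start) were found for 40 members, and not for Fbl, Npm1, Nol6, Rrp12, Bop1 and Rrs1. The E-box CACGTG, a sequence MYC with MAX can bind, was in a window of 8 of the 40 members (20%), against 17.3% of the other pathway genes, counted by gene. Counted by window, it was in 8 of the 43 windows of members, against 7.15% of 32851 promoter windows. The spaced half-sites TTCNNNGAA, the form that STAT proteins such as STAT3 can bind downstream of IL6, were in 5 of 40 (12.5%), against 11.5% of the other pathway genes, by gene. By window they were in 5 of 43, against 8.3% of all windows. Both motifs read the same on both strands, and they do not overlap each other in the windows printed here. Windows are printed for Noc4l, Nop58 and Polr1b, which the results below turn on, and for Rrn3, which holds both motifs, 5′ to 3′ on the gene's strand, with the motif matches in capitals.
Noc4l (chr5:110653333-110653632, minus strand): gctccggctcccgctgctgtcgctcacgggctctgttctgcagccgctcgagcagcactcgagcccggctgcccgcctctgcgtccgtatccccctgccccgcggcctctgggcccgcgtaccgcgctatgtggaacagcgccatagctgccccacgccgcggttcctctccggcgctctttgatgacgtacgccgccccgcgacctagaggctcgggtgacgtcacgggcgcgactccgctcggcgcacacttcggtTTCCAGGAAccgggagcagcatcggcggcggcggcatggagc
Nop58 (chr1:59684756-59685055, plus strand): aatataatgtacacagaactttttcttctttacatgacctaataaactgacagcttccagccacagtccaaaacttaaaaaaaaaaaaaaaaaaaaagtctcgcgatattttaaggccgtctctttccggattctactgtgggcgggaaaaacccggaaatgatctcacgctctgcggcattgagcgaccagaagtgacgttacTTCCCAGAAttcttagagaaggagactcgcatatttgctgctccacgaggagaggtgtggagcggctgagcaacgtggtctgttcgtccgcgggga
Polr1b (chr2:129100746-129101045, plus strand): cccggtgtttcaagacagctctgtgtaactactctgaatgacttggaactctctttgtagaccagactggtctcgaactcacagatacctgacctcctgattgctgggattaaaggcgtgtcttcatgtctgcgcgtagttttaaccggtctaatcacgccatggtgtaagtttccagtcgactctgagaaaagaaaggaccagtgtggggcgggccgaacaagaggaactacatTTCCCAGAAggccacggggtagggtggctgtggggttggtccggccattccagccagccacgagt
Rrn3 (chr16:13780449-13780748, plus strand): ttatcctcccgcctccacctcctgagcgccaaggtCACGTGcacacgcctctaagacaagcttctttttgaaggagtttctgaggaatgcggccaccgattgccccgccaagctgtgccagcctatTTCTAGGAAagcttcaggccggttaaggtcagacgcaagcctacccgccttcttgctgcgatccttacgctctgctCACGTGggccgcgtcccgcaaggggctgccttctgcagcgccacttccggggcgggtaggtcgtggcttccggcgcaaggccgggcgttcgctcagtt
Noc4l held 1 TTCNNNGAA match, starting 8 bases after its start site, and Nop58 held 1, starting 46 bases before it. Polr1b held 1 such match 15 bases before its start. Rrn3 held 2 E-boxes and 1 TTCNNNGAA match. A match is a sequence in the window and not a measured binding site.

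**Figure D1:**
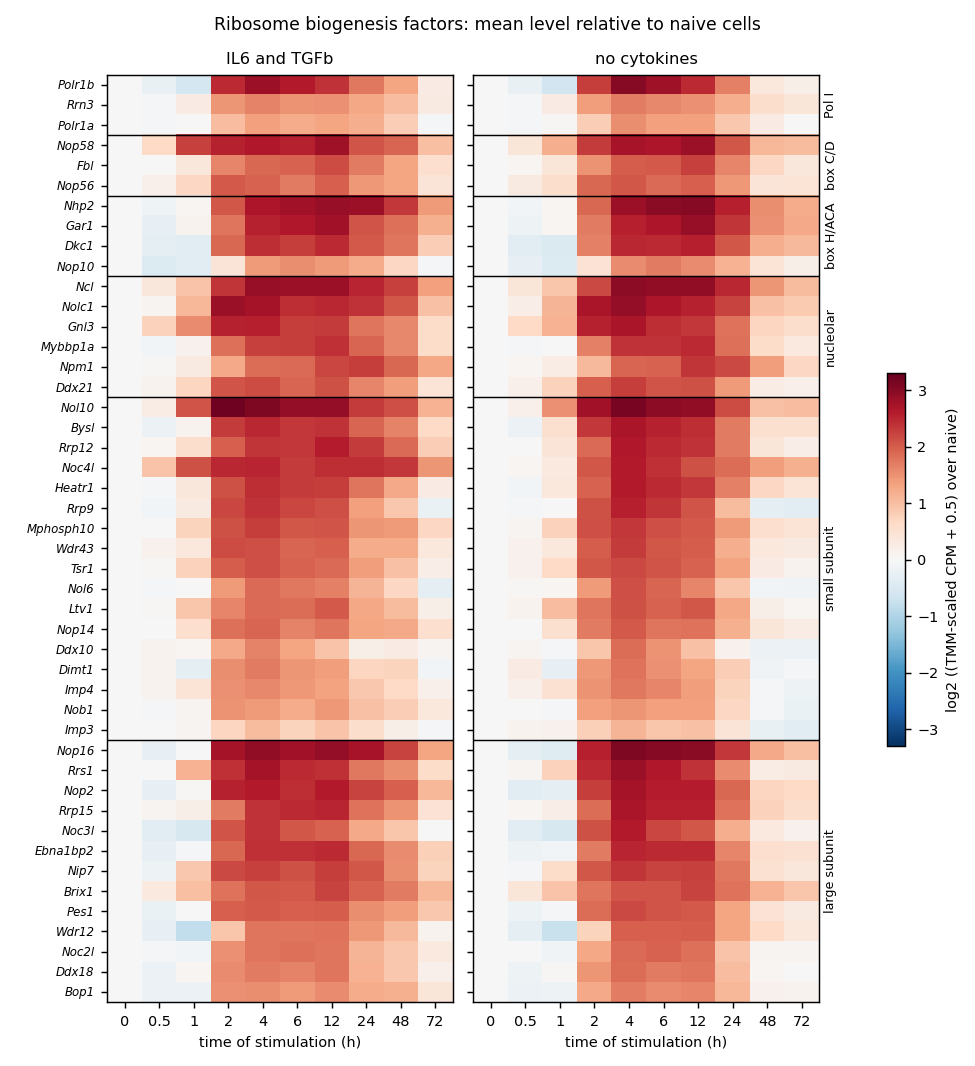
Mean level of each of the 46 members (rows, by role) relative to naive cells at 0 h of courses 1 to 3, on the log2 scale of TMM-scaled CPM plus 0.5, with IL6 and TGFb (left) and without cytokines (right), 3 libraries a group. Red (higher) fills both panels from 2 to 12 h and pales by 72 h, earlier without cytokines than with IL6 and TGFb.

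Stimulation without cytokines raised every member within 2 h. At 0.5 h in Th0 cells, against naive cells at 0 h, 2 of 46 members were called higher and 0 lower (13.5% of all genes were called higher). These were Gnl3, which encodes nucleostemin, a GTP-binding protein that shuttles in and out of the nucleolus (0.67, SE 0.2, adjusted p = 0.0108), and Ncl, which encodes nucleolin (0.40, adjusted p = 0.0419). Neither was called without course 2 (adjusted p = 0.157 for Gnl3 and 0.124 for Ncl) or without course 3 (0.0959 and 0.368), and Ncl was not called without course 1 either (0.138). At 1 h, 18 were higher and 5 lower (28.5% and 28.8% of all genes). At 2, 4, 6 and 12 h all 46 were higher, against 32.4%, 34.8%, 35% and 34.8% of all genes. The members' median change of 0.02 at 0.5 h and 0.23 at 1 h reached 1.85 at 2 h and its highest value of 2.32 at 4 h. It stood at 2.11 at 6 h, 2.10 by 12 h, 1.49 by 24 h, 0.41 by 48 h and 0.28 by 72 h. The medians over all genes tested lay between -0.056 and -0.008. The share of counted reads that fell on the 46 genes was 0.475 to 0.515% in the 6 naive libraries and 1.98 to 2.64% in the 45 libraries of all conditions from 4 to 12 h.

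The first hour was uneven within the pathway. Of the 18 members called higher at 1 h, 8 were small-subunit factors, 4 nucleolar regulators, all 3 box C/D proteins and 3 large-subunit factors. The strongest was Nol10, a nucleolar protein of the small-subunit processome, which had 76.4, 92.1 and 63.5 CPM in Th0 cells at 1 h, against 24.4, 28.4 and 27.7 CPM in naive cells (1.5, SE 0.21, adjusted p = 9.53e-08). Nop58 had 222, 223 and 203 CPM in Th0 cells at 1 h, against 91.6, 93.2 and 95.9 CPM in naive cells (1.20, SE 0.16, adjusted p = 1.31e-08). In both genes every 1 h library was above every naive library. The 5 members that fell at 1 h were Wdr12 (-0.73), Polr1b (-0.62), Noc3l (-0.52), Dkc1 (-0.49) and Nop10 (-0.45). Wdr12, a partner of Pes1 and Bop1 in the PeBoW complex of large-subunit maturation, had 24.8, 27.8 and 28.8 CPM in Th0 cells at 1 h, against 44.6, 45.1 and 46.2 CPM in naive cells (adjusted p = 0.000189), and its libraries did not overlap. Polr1b, the second largest subunit of RNA polymerase I, had 37.9, 40.6 and 42.1 CPM, against 58, 62.5 and 66.3 CPM in naive cells (adjusted p = 0.00893). The fall was brief: at 2 h Polr1b stood at 316, 297 and 300 CPM in Th0 cells and Wdr12 at 75.6, 76.4 and 74.2 CPM, all above the naive libraries. Without course 2, Polr1b, Noc3l, Dkc1 and Nop10 were no longer called at 1 h (adjusted p = 0.114, 0.246, 0.133 and 0.0835) and 1 of the 5 calls was left, that of Wdr12.

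At 4 h every role was up, and the size differed from gene to gene. Within RNA polymerase I, Polr1b had 521, 495 and 485 CPM in Th0 cells, against 58, 62.5 and 66.3 CPM in naive cells (3.00, SE 0.21, adjusted p = 4e-17). Polr1a, which encodes the largest subunit of the same enzyme, had 391, 377 and 363 CPM in Th0 cells, against 129, 124 and 137 CPM in naive cells (1.53, SE 0.12, adjusted p = 1.03e-15), and the initiation factor Rrn3 changed by 1.69 (SE 0.13, adjusted p = 8.2e-16). Among box C/D proteins Nop58 changed by 2.72 (SE 0.16, adjusted p = 1.59e-19) and Fbl, the methyltransferase fibrillarin, by 1.99 (SE 0.11, adjusted p = 2.41e-20). Among box H/ACA proteins Nhp2 had 237, 222 and 213 CPM in Th0 cells, against 28.9, 29 and 35.7 CPM in naive cells (2.83, SE 0.18, adjusted p = 2.74e-18), while Nop10, the smallest protein of that particle, had 135, 131 and 127 CPM, against 38.7, 46.4 and 48 CPM (1.56, SE 0.13, adjusted p = 2.37e-14). Nop10 was also the member with the least change at 2 h (0.47, SE 0.13, adjusted p = 0.00136), and it was not called there without TMM scaling (0.23, adjusted p = 0.115).

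Ncl had 5208, 5587 and 5605 CPM in Th0 cells at 4 h, against 655, 743 and 717 CPM in naive cells (2.96, SE 0.15, adjusted p = 1.45e-21). Npm1, the nucleolar chaperone nucleophosmin, had 2196, 2302 and 2183 CPM, against 578, 615 and 574 CPM (1.92, SE 0.15, adjusted p = 9.93e-16). Small-subunit factors spanned the widest range. Nol10 changed by 3.13 (SE 0.21, adjusted p = 3.59e-17) and Imp3, a protein bound to the U3 small nucleolar RNA, by 1.11 (SE 0.09, adjusted p = 4.11e-15). For Imp3 the values were 118, 117 and 121 CPM in Th0 cells, against 53.2, 56.4 and 54.6 CPM in naive cells. Large-subunit factors ran from Bop1 (1.69, SE 0.15, adjusted p = 5.02e-14) to Nop16 (3.07, SE 0.23, adjusted p = 4.73e-16), and Nop16 had 199, 172 and 187 CPM, against 21.5, 22.3 and 21.2 CPM. In all of these genes the 4 h and naive libraries were far apart and none overlapped.

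Of the 134 other genes of the pathway, 126 were higher and 4 lower at 4 h, with a median change of 1.67. The highest were Naf1, an assembly factor of box H/ACA particles (3.73, SE 0.13, adjusted p = 3.16e-26), and Rcl1, a processome protein (3.19, SE 0.24, adjusted p = 3.97e-16). Ttf1, the RNA polymerase I termination factor, was lower (-0.64, SE 0.1, adjusted p = 3.33e-07). At 2 h 122 were higher and 6 lower, among them Naf1 (3.06, SE 0.13, adjusted p = 4.1e-23) and the RNA polymerase I transcription factor Ubtf (-1.14, SE 0.1, adjusted p = 5.46e-13).

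Myc reached its highest mean level before any member did. It had 207, 211 and 174 CPM in Th0 cells at 0.5 h, 1109, 1393 and 1173 CPM at 1 h and 2420, 2068 and 1829 CPM at 2 h, against 134, 146 and 131 CPM in naive cells. Its mean was highest at 2 h (2106 CPM), and it was 325 ± 38 CPM at 24 h (SD, n = 3).

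**Figure D2:**
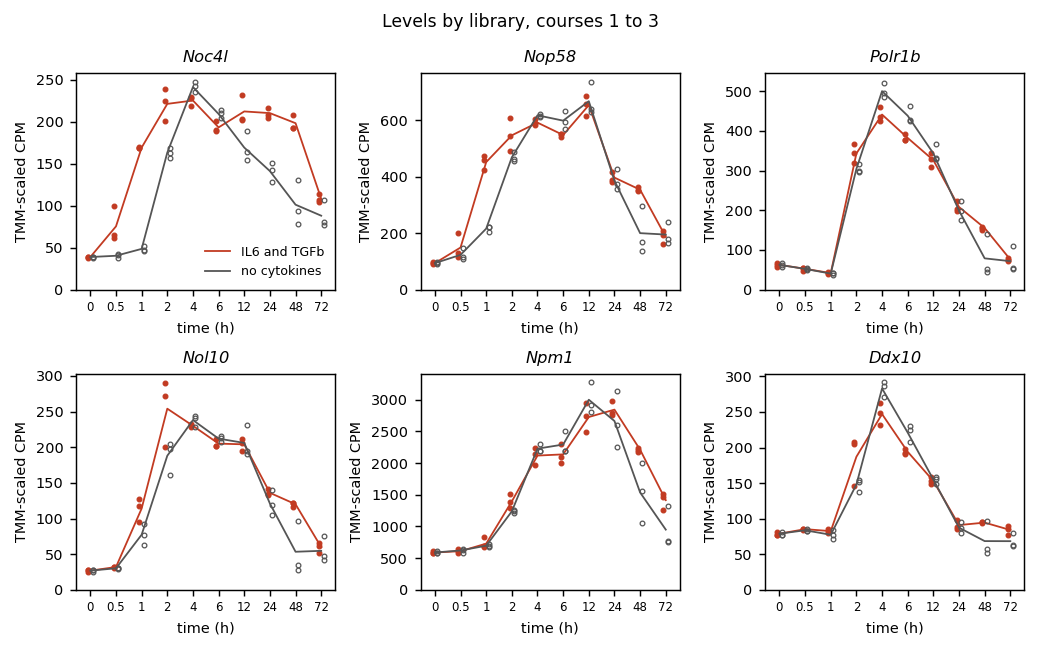
Level in each library (points) and group mean (lines) of Noc4l, Nop58, Polr1b, Nol10, Npm1 and Ddx10 in TMM-scaled CPM at each time (h, evenly spaced), with IL6 and TGFb (filled red) and without cytokines (open grey), 3 libraries a group. Noc4l and Nop58 are higher with IL6 and TGFb at 1 h, and at 48 h the highest Th0 point of each gene comes from course 1.

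The time of the highest mean in Th0 cells fell at 4 h for 35 members, at 6 h for 2 and at 12 h for 9. All 17 small-subunit factors and all 3 RNA polymerase I genes peaked at 4 h, along with 10 of 13 large-subunit factors. Box H/ACA proteins were late, with 3 of 4 at 12 h and Nop10 at 6 h, as were Fbl and Nop58 of the box C/D particle, Npm1 and Mybbp1a. The order by role was looser in the other cultures. Small-subunit factors peaked at 4 h in 12 of 17 cases with IL6 and TGFb, in 6 with all 4 cytokines, in 4 with the IL1b cocktail and in 9 with the IL21 cocktail. Box H/ACA proteins peaked at 12 h in 3 of 4 cases with IL6 and TGFb, but in 0 with all 4 cytokines, 1 with the IL1b and 0 with the IL21 cocktail. The highest mean was 2.17 (Imp3) to 8.85 (Nol10) times that at 0 h, with a median of 5.09. Over the 19 group means of courses 1 to 3, each member correlated with the mean of the other members at r = 0.855 or more, a description of means that share stimulation and library scaling. Ddx10 (0.855), Npm1 (0.859) and Noc4l (0.866) were the least alike, and Heatr1 and Rrn3 (0.994) the most.

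Each gene was also compared between 12 h and 4 h, a comparison chosen after the peak times had been seen; the difference between roles was not tested. In Th0 cells 2 of 46 members were higher and 9 lower at 12 h, smaller shares than over all genes (28.1% and 25.3%). Of the small-subunit factors 6 of 17 were called lower and of the box H/ACA proteins 0 of 4 were called, and the signs in Th0 cells largely follow from the peak times above. Ddx10, a helicase of small-subunit processing, had 156, 159 and 149 CPM in Th0 cells at 12 h, against 292, 286 and 271 CPM at 4 h (-0.87, SE 0.12, adjusted p = 7.04e-08). Npm1 went the other way, with 2921, 3277 and 2800 CPM at 12 h, against 2196, 2302 and 2183 CPM at 4 h (0.43, SE 0.15, adjusted p = 0.0121), and Fbl was the other member called higher (0.27, SE 0.11, adjusted p = 0.0321). Neither gene's libraries overlapped between the times. The higher calls of Npm1 and Fbl were lost without course 2 or course 3 (adjusted p = 0.0705 and 0.0918 for Npm1, 0.0564 and 0.145 for Fbl), and the count of lower calls ran from 3 without course 3 to 17 without course 1.

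The cocktail cultures of courses 4 to 6, which share no library with these, gave the same comparison as a mean over the 3 cocktails. There 7 members were higher and 21 lower at 12 h (38.6% and 38.3% of all genes). Of the small-subunit factors 12 were lower and 1 higher, and of the box H/ACA proteins 3 of 4 were higher and 0 lower. Ddx10 was again lowest (-0.64, SE 0.05, adjusted p = 1.27e-18) and Npm1 highest (0.28, SE 0.05, adjusted p = 7.74e-06). Fbl rose by 0.18 (SE 0.05, adjusted p = 0.00125). The small-subunit factor that rose was Rrp12 (0.22, SE 0.06, adjusted p = 0.000635), which was not called without course 6 (adjusted p = 0.0836). Without TMM scaling 13 members were called higher.

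**Figure D3:**
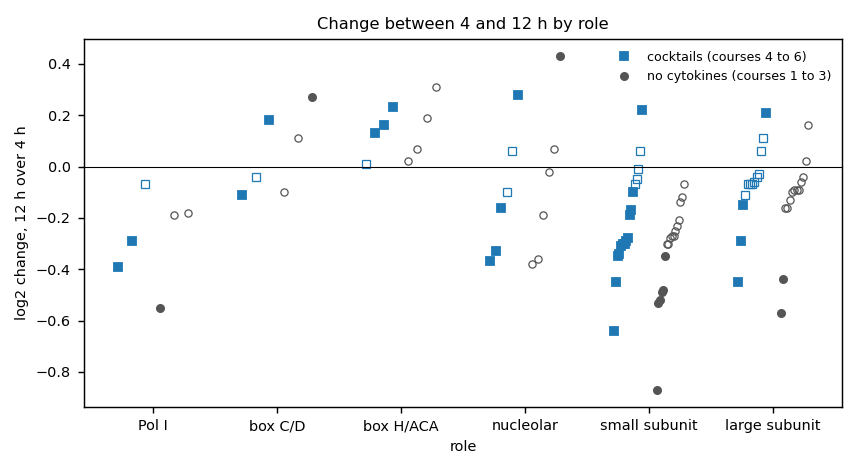
Log2 change from 4 to 12 h of each member by role, in the cocktail cultures of courses 4 to 6 (blue squares, mean of 3 cocktails) and in Th0 cells of courses 1 to 3 (grey circles), with filled symbols for genes called at an adjusted p under 0.05. Small-subunit factors lie almost all under 0 in both sets, down to -0.87, and all 4 box H/ACA proteins lie above 0, of which 3 are called with cocktails and 0 in Th0 cells.

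Early in the course a pair of members was higher with IL6 and TGFb. At 0.5 h with IL6 and TGFb, against no cytokines, 1 member was called higher (0.476% of all genes) and at 1 h 2 were (4.57%), with 0 lower at both times. The count at 1 h was close to the share over all genes, so it does not set the members apart. Noc4l, whose yeast relative Noc4 works with Nop14 in small-subunit assembly, had 99.4, 64.4 and 61.8 CPM with IL6 and TGFb at 0.5 h, against 37.6, 40.6 and 42.4 CPM without cytokines (0.86, SE 0.12, adjusted p = 8.54e-06). At 1 h Noc4l had 168, 169 and 170 CPM with IL6 and TGFb, against 46.5, 52.4 and 46.4 CPM without (1.79, SE 0.12, adjusted p = 3.08e-15). Nop58 had 459, 425 and 473 CPM with IL6 and TGFb at 1 h, against 222, 223 and 203 CPM without (1.06, SE 0.16, adjusted p = 1.69e-06). In these 3 cases all libraries with the cytokines were above all without. These are 2 of the 5 members whose printed or matched windows held TTCNNNGAA, and the other 3, Polr1b, Nob1 and Rrn3, were not called at 0.5 or 1 h. The call of Noc4l at 0.5 h was lost when only the 6 libraries compared were fitted (adjusted p = 0.301), and course 1 held the highest value.

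The other 44 members were not called at 1 h and had a median change, with all 46, of 0.04 (range -0.43 to 1.79). With course as a block and only the 6 libraries compared, a fit added after the calls were seen, 11 members were called higher and 1 lower at 1 h. The share of all genes called in that fit is not given here, so these counts are not read as particular to the members. Of the 134 other pathway genes 7 were higher and 2 lower at 1 h, among them Utp23 (0.85, SE 0.09, adjusted p = 1.02e-09), a small-subunit processome protein, and the 5S ribonucleoprotein assembly factor Rpf2 (0.68, SE 0.18, adjusted p = 0.00919), whose call was lost without course 2 or 3 (adjusted p = 0.0971 and 0.29). Myc had 637, 533 and 343 CPM with IL6 and TGFb at 0.5 h, against 207, 211 and 174 CPM without (1.31, SE 0.19, adjusted p = 1.24e-05). At 1 h it had 2176, 2541 and 1972 CPM with them, against 1109, 1393 and 1173 CPM without (0.86, SE 0.19, adjusted p = 0.00115), and no library overlapped at either time. The 1 h call of Myc was lost without course 2 (adjusted p = 0.0589).

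Noc4l was called again at later times. In the main fit, which leaves out pairing by course, it was the single member called at 2 h (0.44, SE 0.12, adjusted p = 0.0109, against 5.59% of all genes called higher), where it had 239, 224 and 201 CPM with IL6 and TGFb, against 169, 156 and 163 CPM without. With course as a block many more members were called higher at 2 h, as given below. At 24 h Noc4l was called once more in the main fit (0.58, SE 0.12, adjusted p = 0.000255), with 208, 204 and 216 CPM, against 128, 151 and 142 CPM. Polr1a was the other member of 2 called at 24 h, both higher (13.5% of all genes were called higher). It had 296, 301 and 306 CPM with IL6 and TGFb, against 213, 266 and 242 CPM without (0.33, SE 0.12, adjusted p = 0.03). The libraries of both genes stayed apart. The 2 h call of Noc4l and the 24 h call of Polr1a were lost without course 2 or without course 3 (adjusted p = 0.327 and 0.0819, and 0.11 and 0.221). The early effect was set against that at 4 h in a test chosen after the calls were seen. The change at 1 h minus that at 4 h was 1.90 for Noc4l (SE 0.17, adjusted p = 1.06e-10) and 1.12 for Nop58 (SE 0.22, adjusted p = 0.000585). In that test 2 of 46 members were called higher and 0 lower (2.63% of all genes were called higher). The Nop58 difference was not called without course 2 or 3 (adjusted p = 0.0973 and 0.0665).

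At 4, 6 and 12 h 0 members were called in the fits of all groups together in limma, edgeR or DESeq2, while 4.4%, 4.61% and 9.52% of all genes were in limma. At each of these times 1 member had an unadjusted p under 0.05. With only the 6 libraries compared and no block, some members were called lower at 4 and 6 h and higher at 12 h. Those counts are given in the closing section. The estimates at 4 and 6 h lay on one side: all 46 were negative at both times, with medians of -0.13 and ranges of -0.31 to -0.02 and -0.24 to -0.01. Of the 134 other pathway genes 117 were negative at 4 h and 122 at 6 h, and the medians over all genes tested were -0.02 and -0.031. The members move together and share the same libraries and scaling, so their like signs are not separate observations. In 27 members at 4 h and 33 at 6 h all 3 libraries with IL6 and TGFb were under all 3 without (13.6% and 17.7% of all genes). With course as a block and only the 6 libraries compared, 20 members were called lower and 0 higher at 4 h, 29 were higher and 1 lower at 2 h, and 4 were higher and 8 lower at 12 h. No share over all genes is given for that fit, so whether these counts are particular to the members is not shown. Of the other pathway genes 1 was lower at 4 h and at 6 h, Tcof1, which encodes treacle, a nucleolar partner of RNA polymerase I (-0.30, SE 0.08, adjusted p = 0.0157 and -0.29, SE 0.08, adjusted p = 0.0204). It was not called without any 1 of the 3 courses (adjusted p from 0.0563 to 0.912 at 4 h and from 0.132 to 0.431 at 6 h).

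**Figure D4:**
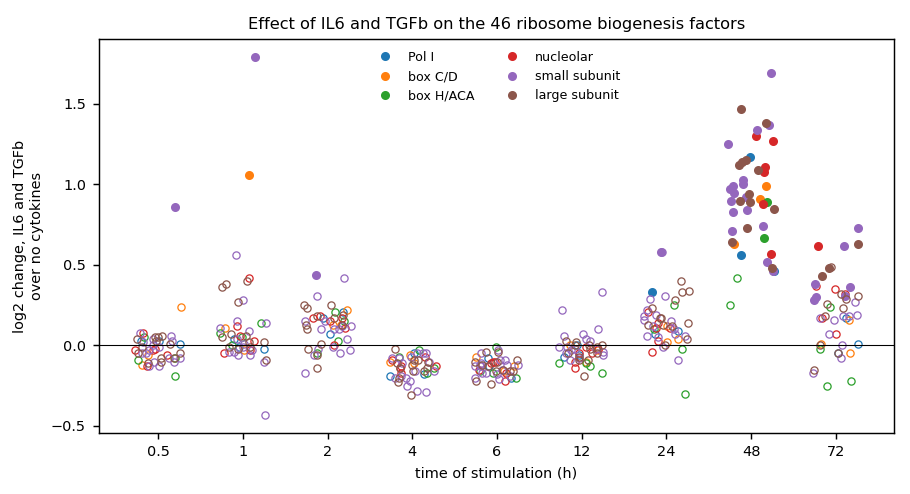
Log2 change with IL6 and TGFb over no cytokines for each of the 46 members at each time (h), coloured by role, filled where called at an adjusted p under 0.05. Calls are those of the main fit, which leaves out pairing by course. In it Noc4l and Nop58 are the only members called at 1 h, the cloud lies just under 0 at 4 and 6 h, and 44 members are called higher at 48 h.

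At 48 h nearly the whole set was higher with the cytokines. With IL6 and TGFb, against no cytokines, 44 of 46 members were called higher and 0 lower (27.6% of all genes were called higher), with a median change of 0.91 against -0.033 over all genes tested. All 3 RNA polymerase I genes, all 3 box C/D proteins, 2 of 4 box H/ACA proteins, all 6 nucleolar regulators, all 17 small-subunit and all 13 large-subunit factors were among them. Of the other pathway genes 115 of 134 were higher and 0 lower, with a median of 0.58. Rrp12, a factor of pre-ribosome export, had 227, 252 and 234 CPM with IL6 and TGFb, against 158, 57.3 and 43.1 CPM without (1.69, SE 0.23, adjusted p = 7.25e-08). Rrs1, which helps load the 5S particle on the large subunit, had 120, 116 and 115 CPM, against 83.4, 33.5 and 26.1 CPM (1.47, SE 0.18, adjusted p = 4.05e-09). In both genes the 3 libraries with the cytokines lay close together and those without were split between course 1 and the other courses, with no overlap.

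Nolc1, a nucleolar phosphoprotein that binds both kinds of small nucleolar particles, had 526, 526 and 536 CPM with IL6 and TGFb, against 441, 173 and 128 CPM without (1.30, SE 0.21, adjusted p = 1.03e-06). Polr1b had 156, 151 and 158 CPM, against 140, 51.3 and 44.2 CPM (1.17, SE 0.21, adjusted p = 6.33e-06). Nop56 changed by 0.99 (SE 0.16, adjusted p = 2.62e-06) and Nhp2 by 0.89 (SE 0.18, adjusted p = 5.52e-05). Nop10 (0.25, SE 0.13, adjusted p = 0.104) and Gar1 (adjusted p = 0.0707) were the members not called. Gar1 had 108, 96.3 and 108 CPM with IL6 and TGFb, against 132, 52.5 and 67.2 CPM without, so that here course 1 without cytokines was the highest library. Among other pathway genes Pak1ip1 (1.64, SE 0.1, adjusted p = 5.36e-18) and Eif6 (1.39, SE 0.12, adjusted p = 5.49e-13), which keeps the subunits from joining, were the highest. Myc had 504, 455 and 467 CPM with IL6 and TGFb, against 301, 135 and 163 CPM without (1.34, SE 0.19, adjusted p = 1.2e-07).

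Without the Th0 libraries of course 1 at 48 and 72 h, all 46 members were called higher at 48 h, Gar1 by 0.80 (adjusted p = 2.88e-06) and Nop10 by 0.38 (adjusted p = 0.0118). The count was 31 without course 2, where Nhp2 was not called (adjusted p = 0.0609), and 34 without course 3. With only the 6 libraries compared in the fit, 21 were called. Mki67 had 1077, 803 and 1098 CPM at 48 h with IL6 and TGFb, against 1041, 1563 and 1509 CPM without, and the summed p53 target list (10 genes) 1530, 1968 and 1869 CPM, against 2390, 2685 and 3087 CPM. Sums of the marker lists also differed at 48 h. The CD8 T cell list summed to 3.33, 4.12 and 3.08 CPM with IL6 and TGFb, against 11.6, 14.1 and 16.2 CPM without, and the B cell list to 1.01, 1.63 and 1.55 CPM, against 2, 10.7 and 7.13 CPM. The NK and gamma-delta T cell list summed to 11, 6.96 and 11 CPM, against 0.691, 1.86 and 1.29 CPM, and the naive and CD4 T cell list to 1806, 1575 and 1694 CPM, against 2321, 3114 and 3184 CPM. The part of these genes and lists in the result was not tested.

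The 48 h effect was set against that at 24 h in a test chosen after the calls were seen. The change at 48 h minus that at 24 h was positive for all 46 members (median 0.77). Of these, 32 were called higher (10.7% of all genes were called higher), among them Rrs1 (1.30, SE 0.25, adjusted p = 0.000306) and Polr1b (1.10, SE 0.29, adjusted p = 0.00619). The calls depended on the fit: 0 members were called without course 2, without course 3 or with only the libraries compared, 46 without course 1 and 45 without its Th0 libraries at 48 and 72 h.

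At 72 h 11 of 46 members were called higher with IL6 and TGFb and 0 lower. The higher calls were close to the share over all genes (22.7%), so their count does not set the members apart. Of these 11, 7 were small-subunit factors. Rrp12 had 101, 129 and 112 CPM with IL6 and TGFb, against 128, 47.1 and 52.9 CPM without (0.73, SE 0.23, adjusted p = 0.00974). Pes1 had 121, 144 and 131 CPM, against 116, 73.6 and 72 CPM (0.63, SE 0.13, adjusted p = 9.33e-05), and Npm1 1261, 1514 and 1472 CPM, against 1317, 772 and 760 CPM (0.62, SE 0.15, adjusted p = 0.000493). For Rrp12 and Npm1 the Th0 library of course 1 lay within the range of the libraries with the cytokines, and for Pes1 just under it. The count turned on single courses: 43 members were called without course 1, 40 without the Th0 libraries of course 1 at 48 and 72 h, 2 without course 3, and 0 without course 2 or with only the 6 libraries compared. Myc had 442, 477 and 413 CPM with IL6 and TGFb, against 283, 187 and 170 CPM without (1.09, SE 0.19, adjusted p = 6.71e-06).

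The members came down together late in the course. In Th0 cells at 48 h, against naive cells, 26 were still higher and 2 were lower (34.8% and 34.9% of all genes), and at 72 h 20 were higher and 1 lower (33.2% and 32.2%). At 24 h 45 had been higher (35.9% of all genes), the exception being Ddx10 (0.14, SE 0.12, adjusted p = 0.291). All 4 box H/ACA proteins were still higher at 48 h, Nhp2 by 1.45 (SE 0.18, adjusted p = 1.57e-09), and Gar1 had the highest change of the members at 72 h (1.18, SE 0.2, adjusted p = 1.45e-06). The members under naive cells at 48 h were Rrp9, a U3 small nucleolar RNA-binding protein (-0.44, SE 0.19, adjusted p = 0.0363), and Imp3 (-0.26, SE 0.09, adjusted p = 0.00826), and Imp3 was the one at 72 h (-0.34, SE 0.09, adjusted p = 0.000924). Without course 2 neither was called at 48 h (adjusted p = 0.378 for Rrp9 and 0.297 for Imp3), nor Imp3 at 72 h (0.097), and without course 3 neither was at 48 h (0.973 and 0.222). Without the Th0 libraries of course 1 at these times, 14 members were higher and 16 lower at 48 h, and 16 were higher and 15 lower at 72 h.

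From 24 to 72 h all 46 members fell in Th0 cells (24.6% of all genes fell), and 45 fell with IL6 and TGFb (27%), with a median of -1.14 in each. The deepest fall in Th0 cells was that of Rrp12, with 128, 47.1 and 52.9 CPM at 72 h, against 188, 239 and 216 CPM at 24 h (-1.64, SE 0.23, adjusted p = 2.1e-07). Without the Th0 libraries of course 1 at 48 and 72 h all 46 still fell, Rrp12 by 2.09 (adjusted p = 1.52e-21). The deepest with IL6 and TGFb was that of Rrp9, with 48.4, 58.8 and 57.3 CPM at 72 h, against 153, 163 and 174 CPM at 24 h (-1.57, SE 0.19, adjusted p = 2.08e-09). Ddx10 had passed most of its fall before 24 h, and it changed by -0.36 in Th0 cells (SE 0.12, adjusted p = 0.0133, not called without course 2 or 3) and by -0.11 with IL6 and TGFb (SE 0.12, adjusted p = 0.445). The fall with IL6 and TGFb minus that in Th0 cells had a median of 0.09, and 0 members were called in limma, edgeR or DESeq2 (12.6% of all genes were called higher), with 3 at an unadjusted p under 0.05. The nearest was Npm1 (0.51, SE 0.21, adjusted p = 0.0694). Without course 1, 32 members were called, and 24 without the Th0 libraries of course 1 at 48 and 72 h, all with the smaller fall under IL6 and TGFb.

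**Figure D5:**
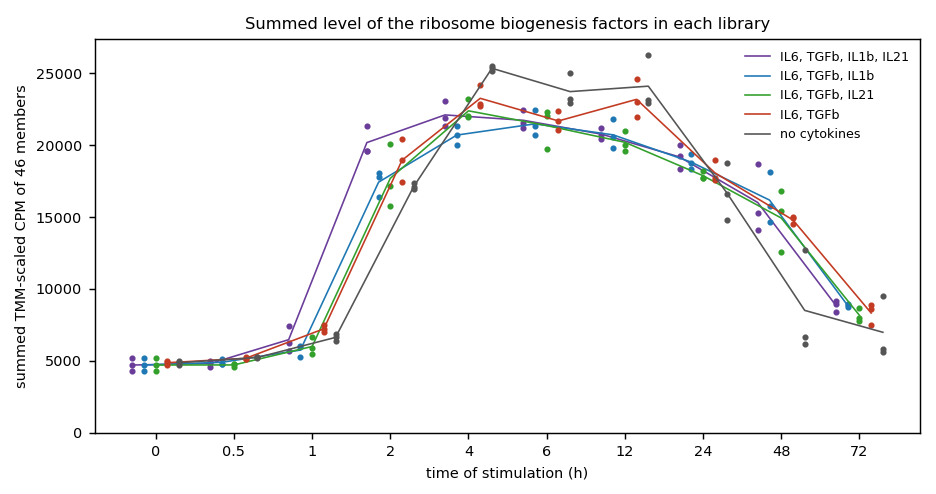
Summed level of the 46 members in each library (points) and group means (lines) in TMM-scaled CPM, by time (h, evenly spaced), for the 3 cocktails of courses 4 to 6 and for IL6 with TGFb and no cytokines in courses 1 to 3. All conditions climb between 1 and 4 h, and at 48 h Th0 libraries 2 and 3 (6137 and 6681 CPM) lie under every library with cytokines, while Th0 library 1 stands at 12693 CPM.

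In courses 4 to 6, as the mean of the 3 cocktails against their own naive cells, 45 members were higher at 2 h (35.7% of all genes), 46 at 6 h (38.8%), 46 at 24 h (42.2%) and 38 at 72 h (44.7%), where 1 was lower. The medians were 1.84, 2.08, 1.78 and 0.60. Nol10 led at 2 h (3.36, SE 0.12, adjusted p = 1.93e-36) and at 6 h (3.00, SE 0.12, adjusted p = 4.5e-34), and Nop16 at 24 h (2.87, SE 0.09, adjusted p = 2.89e-38) and 72 h (1.68, SE 0.09, adjusted p = 8.83e-26). Nop10 was the one not called at 2 h (0.13, SE 0.09, adjusted p = 0.178), and without TMM scaling it was lower (-0.19, adjusted p = 0.0205). Ddx10 was the least changed at 24 h (0.35, SE 0.07, adjusted p = 8.44e-06). Nol6, a processome protein, was lower at 72 h (-0.15, SE 0.06, adjusted p = 0.0251), a call lost without course 5 (adjusted p = 0.324). Noc4l was also high early in these cultures: at 1 h it had 202, 143 and 154 CPM with all 4 cytokines, 158, 140 and 118 CPM with IL1b and 174, 170 and 131 CPM with IL21, against 38.6, 39.5 and 34 CPM in naive cells. These courses have no culture without cytokines, so the part of the cytokines in that rise cannot be told apart from that of stimulation.

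In fits that leave out pairing by course, few members were called between the cocktails. At 24 h 0 of 46 members were called between IL6, TGFb, IL1b, IL21 and IL6, TGFb, IL21 (0.202% of all genes), between all 4 and IL6, TGFb, IL1b (0% of all genes) or between the IL1b and the IL21 cocktail (0.242%), in limma, edgeR or DESeq2 and with 0 at an unadjusted p under 0.05. At 72 h, in limma, edgeR or DESeq2 alike, 0 were called for IL1b added to the IL21 cocktail (4.22% of all genes), 0 for IL21 added to the IL1b cocktail (0%) and 1 for the IL1b against the IL21 cocktail (9.89%), with 7, 0 and 12 at an unadjusted p under 0.05. That 1 was Ebna1bp2, a large-subunit factor, with 125, 131 and 124 CPM in the IL1b cocktail at 72 h, against 96.1, 108 and 107 CPM in the IL21 cocktail (0.29, adjusted p = 0.0387). Its libraries did not overlap, but it was not called without any 1 of the 3 courses (adjusted p from 0.119 to 0.219). At 72 h the libraries of a course deviated together in all 3 courses, and with course as a block and only the libraries compared 14, 0 and 14 members were called higher. At 24 h that held for the IL1b against the IL21 cocktail, with 18 higher. The counts of this block fit also stand without a share over all genes and are not read as particular to the members. In the main fit the estimates lay mostly on one side where only 1 cocktail held IL1b. For IL1b added to the IL21 cocktail 46 were positive at 24 h (median 0.1) and 44 at 72 h (0.14). For the IL1b against the IL21 cocktail 45 and 42 were (0.08 and 0.12), and for IL21 added to the IL1b cocktail 36 and 26 (0.03 and 0.01). As at 4 and 6 h above, like signs are not separate observations.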

How the data were processed

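The members and gene lists, and the comparisons of 12 h with 4 h, 48 h with 24 h and 1 h with 4 h, were chosen with earlier results of these data known. Reads were aligned and counted with TopHat and HTSeq, with the builds mm9 and GRCh37 listed, per the submitters' processing notes. The deposited table holds CPM per gene, made by the authors: each of 141 columns sums to the same total, as CPM does. Whole reads were recovered from 100% of the values (tolerance 0.001). Mitochondrial genes (37) had 0 reads. The design foresaw both units, and limma was kept as the main test because the deposited unit is CPM.

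Genes reaching 1 CPM in 3 libraries of a set (14695 of courses 1 to 3, 14859 of courses 4 to 6) were tested in limma 3.58.1 (R 4.3.3) on log2 of TMM-scaled CPM plus 0.5, with all groups of a set of courses in 1 fit (38 and 56 residual degrees of freedom), a mean-variance trend and Benjamini-Hochberg adjustment over all genes. On the recovered reads, edgeR 4.0.16 and DESeq2 1.42.0 served as alternatives; at 4 h against naive cells limma called 10706 genes and edgeR 10708. Other alternatives were no TMM scaling, a pseudocount of 0.1, no filter, course as a block, leaving out each course, and only the libraries compared. Chosen after seeing the data were the fit without the course 1 Th0 libraries at 48 and 72 h and the block with only the libraries compared. Replicate spread, as a mean over the genes tested, was 2.85 to 260 times that of counting alone (median 11.1). A mean over genes does not show how far depth limited precision for genes with few reads. The script was tested on simulated data.

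Same-numbered libraries were taken as pairs where the deviations of all 3 courses correlated above 0.1. This held for the effect of IL6 and TGFb at 0.5, 1, 2, 4 and 12 h (lowest correlations 0.126, 0.388, 0.405, 0.234 and 0.306), for stimulation at 1 and 12 h, for the 3 pairs of cocktails at 72 h and for the IL1b against the IL21 cocktail at 24 h. All 46 members could be named. Full statistics were given for the members with the highest and lowest change by role, those against the majority, the companions with the highest and lowest changes, and Myc. Of 135 companions 134 were in the table. Promoters came from RefSeq and small nucleolar RNA genes from GENCODE, whose builds differ from mm9, so they were joined by gene name only.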

Additional observations from a re-analysis of the deposited data

Results flagged for a closer look

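The effect of IL6 and TGFb on some of these genes differed between times by a test of the difference itself. The times compared were chosen after the calls had been seen. Between 48 h and 24 h, 32 members differed, among them Rrs1 by 1.30 and Polr1b by 1.10 on the log2 scale, all with the higher effect at 48 h. At 48 h the members summed to 14494, 14915 and 14983 CPM with IL6 and TGFb, against 12693, 6137 and 6681 CPM without cytokines, and 46 members were called without course 1 and 45 without the Th0 libraries of course 1 at 48 and 72 h. Without course 2, without course 3 or with only the libraries compared, 0 were called.

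Between 1 h and 4 h, 2 members differed, Noc4l by 1.90 and Nop58 by 1.12, both with the higher effect at 1 h, against 2.63% of all genes called higher. The Nop58 difference was not called without course 2 or 3 (adjusted p = 0.0973 and 0.0665 in limma).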

How the results depend on the processing

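Of 70 counts of called members, 37 stayed within 1.5 times of the reported count under every alternative run. Counts under the alternatives are given without a share over all genes and are not read as particular to the members. Of 87 results on single genes, 48 kept their direction and their side of the threshold throughout; 1 turned, Nop10 with cocktails at 2 h against naive cells (-0.19 without TMM scaling). The causes were not tested, except where fewer libraries or genes entered a fit by construction.

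Leaving out 1 course at a time gave the following ranges. Against naive cells, Th0 counts were 0 to 1 higher and 0 to 8 lower at 0.5 h, 10 to 18 higher and 1 to 12 lower at 1 h, 12 to 30 higher and 0 to 17 lower at 48 h, and 15 to 21 higher and 0 to 14 lower at 72 h. For IL6 and TGFb they were 2 to 7 higher and 0 to 1 lower at 1 h, 0 to 1 higher at 2 h and at 12 h, 1 to 8 higher and 0 to 1 lower at 24 h, 31 to 46 at 48 h and 0 to 43 at 72 h. They were 0 to 46 for 48 h minus 24 h, 1 to 5 for 1 h minus 4 h and 0 to 32 for the late difference. For 12 h against 4 h they were 0 to 3 higher and 3 to 17 lower in Th0 cells and 2 to 7 higher with cocktails. They were 0 for the IL1b against the IL21 cocktail at 72 h and 0 to 1 lower for cocktails at 72 h.

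Without TMM scaling the counts were 1 higher and 2 lower at 0.5 h, 10 lower at 1 h and 0 lower at 48 h in Th0 cells, 1 lower with cocktails at 2 h, 1 higher at 24 h and 6 higher and 1 lower at 72 h for IL6 and TGFb, 2 for the IL1b against the IL21 cocktail at 72 h, and, for 12 h against 4 h, 3 lower in Th0 cells and 13 higher with cocktails. Leaving the scaling out moved the median of all genes by -0.17, -0.18, 0.14 and 0.1 for stimulation at 1, 2, 48 and 72 h, by -0.12 for IL6 and TGFb at 48 h, by -0.1 for 48 h minus 24 h and by -0.24 for cocktails at 2 h. The share of all calls that were higher was 40.6, 34.1 and 36.2% without scaling, against 58.6, 49.8 and 46.9% with it, for stimulation at 0.5, 1 and 2 h. It was 38 and 38.6%, against 52 and 49%, for IL6 and TGFb at 48 and 72 h, 38.9%, against 59.6%, for 48 h minus 24 h, 48.6%, against 58.6%, for the late difference, 63.3%, against 52.7%, for 12 h against 4 h in Th0 cells, and 34.6%, against 46.4%, for cocktails at 2 h.

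With no filter the counts were 1 higher at 0.5 h, 0 lower at 48 h and at 72 h in Th0 cells, 0 lower with cocktails at 72 h, 0 at 2 h and 1 at 24 h for IL6 and TGFb, 0 for the IL1b against the IL21 cocktail at 72 h, and 1 higher and 4 lower for 12 h against 4 h in Th0 cells. With only the libraries compared they were 6 higher at 0.5 h, 12 higher and 0 lower at 48 h and 10 higher at 72 h in Th0 cells. For IL6 and TGFb they were then 0 at 0.5 h, 5 higher and 1 lower at 1 h, 5 higher at 2 h, 8 lower at 4 h, 9 lower at 6 h, 2 higher at 12 h, 14 higher and 1 lower at 24 h, 21 at 48 h, 0 at 72 h, 0 for 48 h minus 24 h and 9 for 1 h minus 4 h. They were 5 higher and 27 lower for 12 h against 4 h in Th0 cells and 0 for the IL1b against the IL21 cocktail at 72 h. In edgeR and in DESeq2 alike 1 member was lower at 48 h in Th0 cells, and DESeq2 called 1 higher at 0.5 h.

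Course as a replicate block in the shared fit gave 3 higher for the IL1b against the IL21 cocktail at 72 h and moved no other count by over 1.5 times. The block with only the libraries compared gave, for IL6 and TGFb, 11 higher and 1 lower at 1 h, 29 higher and 1 lower at 2 h, 20 lower at 4 h, and 4 higher and 8 lower at 12 h. It gave 18 higher for the IL1b against the IL21 cocktail at 24 h and 14 at 72 h, and 14 for IL1b added at 72 h. Shares over all genes are not given for this block fit. Without the course 1 Th0 libraries at 48 and 72 h the counts were 14 higher and 16 lower at 48 h and 15 lower at 72 h in Th0 cells, 40 higher for IL6 and TGFb at 72 h and 24 for the late difference.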
